A study of Mus musculus with 6 samples.

Results

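The 39 genes described here are regulators and transcriptional targets of p53, the GADD45 family, and the BCL2 family with the caspases and caspase regulators of the intrinsic death pathway. They were listed by symbol in 9 roles, by a rule that used no expression value but with earlier results of these data known. The deposited tables used here held 35 of them among 14667 genes, and Trp53, Rrm2b, Tnfrsf10b and Polk were not analysed here.

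RNA was measured by poly(A) RNA-seq in NE-4C, a mouse line described in the labels as neural stem cells that are deficient in p53. All lines shared a knockout of H3f3a, which encodes the histone variant H3.3, and each stably expressed an HA-tagged H3.3. H3.3WT cells expressed the wild-type protein, Cbfa2t2_KO cells expressed it after Cbfa2t2, a gene for a transcriptional corepressor, had been knocked out as well, and H3.3K27M cells expressed a mutant in which methionine takes the place of lysine 27. The 3 groups held 2 libraries each (n = 2 throughout), and neither clone numbers nor separate cultures are given, so p-values measure the spread between these libraries, which may be technical. Both comparisons with H3.3WT used the same 2 H3.3WT libraries. Groups said not to overlap are only described, since 2 libraries against 2 allow no two-sided exact permutation p under 0.333.

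In cells with functional p53, DNA damage stabilises this transcription factor by freeing it from the ubiquitin ligase MDM2. Its targets then arrest the cell cycle, repair DNA or start apoptosis. In the intrinsic death pathway BH3-only proteins free or activate the pore formers BAX and BAK, which the antiapoptotic BCL2 proteins hold in check. Cytochrome c then drives APAF1 to assemble the apoptosome, which activates caspase 9. Many of these genes also answer to other regulators, such as FOXO factors, ATF4 and growth factor signals.

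Values were FPKM, which are per transcript length, so levels can be set beside each other between genes. Read depth is unknown, since the tables hold no counts, and FPKM sums per library ran from 363586 to 419389. Libraries of one group correlated at 0.984 to 0.988 on the log2 scale across shared genes and libraries of different groups at 0.945 to 0.978, as a description of libraries over genes that are not independent. Cbfa2t2 stood at 1.38 and 1.35 FPKM in H3.3WT, 1.02 and 0.769 in Cbfa2t2_KO and 2.02 and 0.856 in H3.3K27M, and its change in the libraries labelled Cbfa2t2_KO, -0.32 ± 0.16 (adjusted p = 0.153), did not pass, so its RNA level does not check that label. H3f3a, labelled as knocked out in all lines, stood at 131 and 181 FPKM in H3.3WT, 82.1 and 66.3 in Cbfa2t2_KO and 77.3 and 66.8 in H3.3K27M. It was called lower in both lines, by -1.05 ± 0.19 (adjusted p = 0.00501) after Cbfa2t2 knockout and -1.09 ± 0.20 (adjusted p = 0.00708) with K27M, and leaving out H3.3WT replicate 2 ended the second call (adjusted p = 0.0675). These levels do not check the H3f3a label, since RNA of the gene and of the HA-tagged construct cannot be told apart here, and the part of this difference in the results below was not tested. Of 11 neural stem and progenitor markers, 7 passed the 1 FPKM minimum in the comparisons with H3.3WT. Nes stood at 14.3 to 38.8 FPKM over the 6 libraries and Sox2 at 9.55 to 34.4, whereas Pax6 and Hes5 stayed below 1 FPKM in each library. Stem and progenitor markers had calls in both directions in each line, and their sums were 114 and 126 FPKM in H3.3WT, 93.9 and 82.2 in Cbfa2t2_KO and 111 and 119 in H3.3K27M. Summed over the 4 of 7 neuronal markers with values, levels were 76.5 to 77.5 FPKM in H3.3WT, 134 to 150 in Cbfa2t2_KO and 76.8 to 81.4 in H3.3K27M. The 3 tested changed by -0.34 to 0.93 in Cbfa2t2_KO. Astrocyte and mesenchymal markers also had calls in both directions in Cbfa2t2_KO. The part of these differences in the results below was not tested. In bulk RNA, fewer cells that express a gene and less RNA per cell cannot be told apart.

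Changes are log2 differences of FPKM + 1 from limma with their SE, which makes changes of low genes look smaller, and a gene was called at an adjusted p of at most 0.05. In Cbfa2t2_KO against H3.3WT, 31 members passed the minimum. Of these Ccng1, Ccng2 and Sesn1 rose (9.68%, beside 13.1% of all genes tested) and Gadd45g, Aen, Mcl1, Bok and Diablo fell (16.1%, beside 21.5%). In H3.3K27M against H3.3WT, again with 31 tested, Ccng2, Sesn1 and Pmaip1 rose (9.68%, beside 8.42% of all genes) and Gadd45g, Phlda3, Aen, Bcl2l1, Bok, Bad and Diablo fell (22.6%, beside 17.8%). In the direct comparison of H3.3K27M with Cbfa2t2_KO, 32 were tested. Bok and Pmaip1 were higher in H3.3K27M (6.25%, beside 3.18% of all genes), and Ccng1, Phlda3 and Bad were lower (9.38%, beside 4.89%).

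The members as a group thus had shares of calls near those of all genes in the comparisons with H3.3WT, with single large changes among many small ones. Their median log2 change was -0.048 in Cbfa2t2_KO, beside -0.11 for all genes tested, and -0.30 in H3.3K27M, beside -0.12. In the respective comparisons 23 and 21 members did not pass. Called in the same direction in both lines were Ccng2 and Sesn1 (higher) and Gadd45g, Aen, Bok and Diablo (lower), all against the same control libraries. Median-of-ratios scaling moved the median of all genes to -0.001 in Cbfa2t2_KO and to 0.004 in H3.3K27M. The share of calls that were rises then went from 37.9% to 50.6% and from 32.1% to 48.8%.

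**Figure D1:**
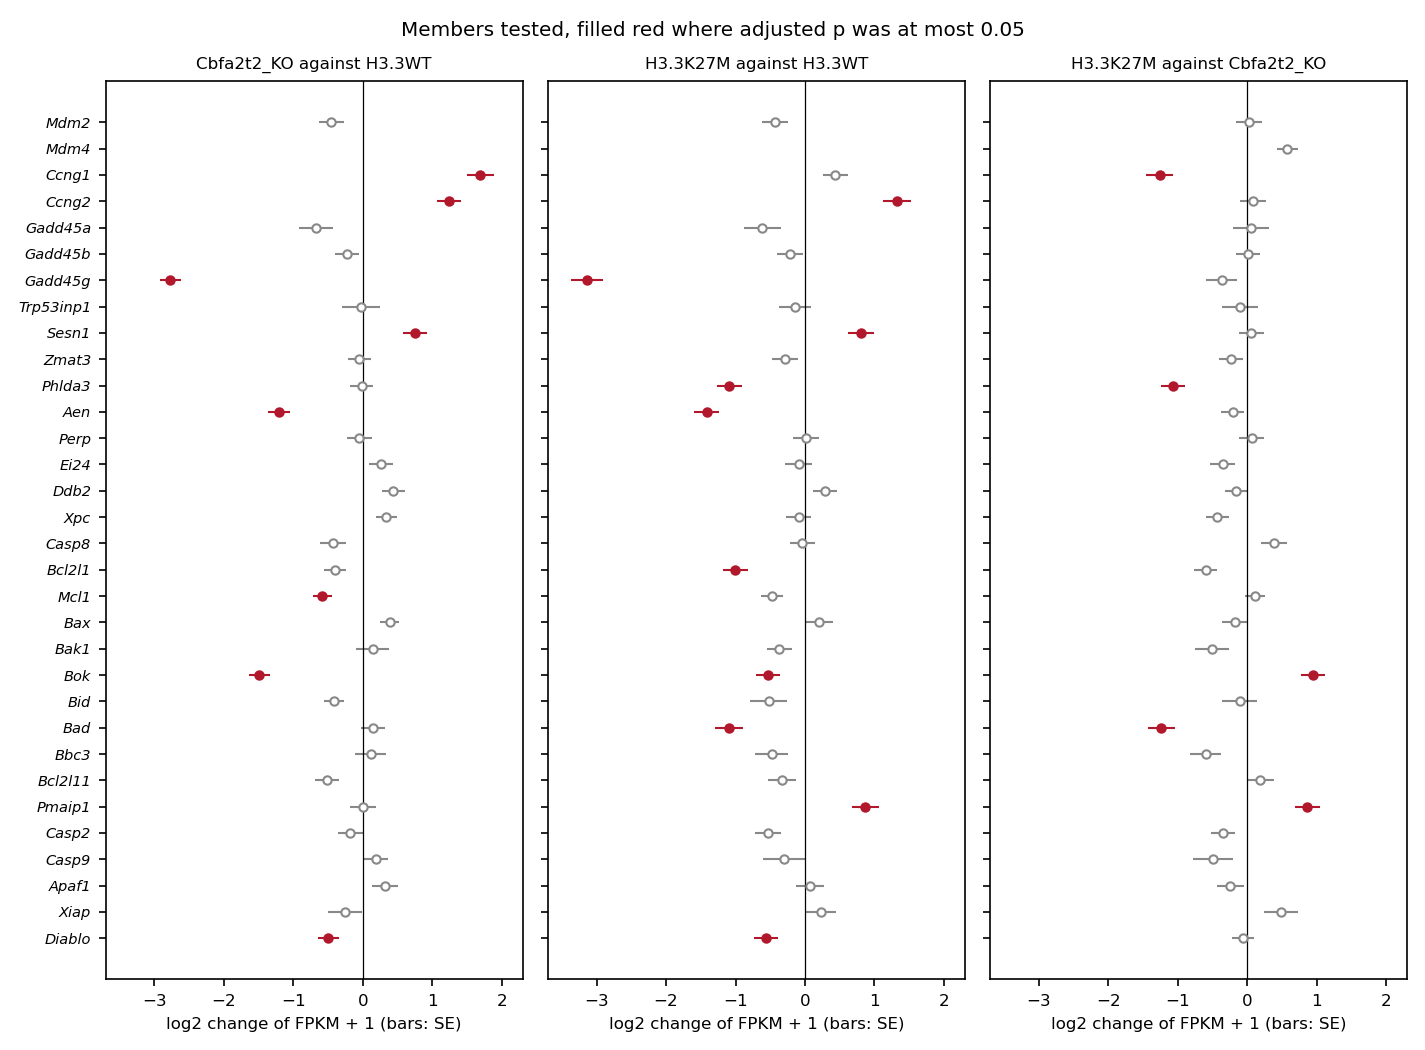
Log2 change of FPKM + 1 (x axis, point and SE) of each tested member (y axis) in the 3 comparisons, with calls at an adjusted p of at most 0.05 filled in red. Gadd45g is the lowest point in both comparisons with H3.3WT (-2.77 and -3.14), and Ccng1, Phlda3, Bok, Bad and Pmaip1 are the 5 members called between Cbfa2t2_KO and H3.3K27M.

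Among the negative regulators of p53, limma called none. At an unadjusted p under 0.05, Mdm2 was lower in Cbfa2t2_KO and Mdm4 higher in H3.3K27M than in Cbfa2t2_KO. Mdm2, the ubiquitin ligase that p53 itself induces, stood at 6.14 and 7.17 FPKM in H3.3WT, 5.14 and 4.09 in Cbfa2t2_KO and 4.92 and 4.45 in H3.3K27M. Both lines lay below both H3.3WT libraries, but the changes of -0.45 ± 0.18 (adjusted p = 0.0926) and -0.43 ± 0.19 (adjusted p = 0.126) did not pass the test. Mdm4, a relative of MDM2 that binds and inhibits p53, was below the minimum against H3.3WT, at 0.439 and 0.431 FPKM in H3.3WT, 0.772 and 0.489 in Cbfa2t2_KO and 1.53 and 1.32 in H3.3K27M. Its H3.3K27M libraries were the highest of the 6 and did not overlap with the others. With no minimum it was called higher in H3.3K27M against H3.3WT (0.76 ± 0.17, adjusted p = 0.0171). Against Cbfa2t2_KO it entered the test only through its H3.3K27M level, with 0.58 ± 0.15 (adjusted p = 0.052), and was called there after median-of-ratios scaling (adjusted p = 0.0364) and after quantile normalization (adjusted p = 0.0218).

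Gadd45g showed the largest change of any member in both lines. It encodes a small stress protein that binds the kinase MAP3K4 and cell cycle proteins, and it also marks cells leaving the cycle in the developing nervous system. On GRCm38, GENCODE vM21 places it at ENSMUSG00000021453, chromosome 13, 51846678 to 51848468, forward strand. Its level was 38.6 and 44.1 FPKM in H3.3WT, 5.49 and 4.93 in Cbfa2t2_KO and 2.89 and 4.92 in H3.3K27M. Both H3.3WT libraries were several times above each of the other 4, with no overlap. The change was -2.77 ± 0.15 (adjusted p = 0.000118) in Cbfa2t2_KO, a ratio of means of 0.126, and -3.14 ± 0.23 (adjusted p = 0.000776) in H3.3K27M, a ratio of 0.0945. Between the lines the difference of -0.37 ± 0.22 (adjusted p = 0.287) did not pass. The call against H3.3WT held under each alternative run, with log2 changes from -2.96 to -2.65 in Cbfa2t2_KO.

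The Gadd45g promoter is shown because this member had the largest fall. The 250 bases before the RefSeq start on GRCm38.p6 are given on the forward strand (chr13:51846425-51846674), with capitals for an E-box, a CCAAT box and a TATA box, which share no bases:
Gadd45g: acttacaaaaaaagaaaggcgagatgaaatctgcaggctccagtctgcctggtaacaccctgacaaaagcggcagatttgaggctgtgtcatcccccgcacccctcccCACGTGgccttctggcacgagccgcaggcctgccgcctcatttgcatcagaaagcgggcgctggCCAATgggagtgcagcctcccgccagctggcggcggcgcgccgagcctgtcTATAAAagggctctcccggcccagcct
GC content of this window was 62.0%. Of 32851 RefSeq windows of the same length, 6.02% held the E-box, searched on both strands as CACGTG. The box named for its letters CCAAT was in 33.8% of them. The third, searched as TATAAA, was in 12.4%. Among 40 windows of the 29 members matched in that table, 6 held the E-box, 16 the CCAAT box and 3 the TATA box, and the Gadd45b window held all of them as well. A match describes letters and no bound factor.

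The other GADD45 genes were not called. Both were below Gadd45g in H3.3WT and Cbfa2t2_KO, whereas in H3.3K27M Gadd45a was above it in each library. Gadd45a, the p53-induced founding member, stood at 5.58 and 9.79 FPKM in H3.3WT, 4.19 and 4.42 in Cbfa2t2_KO and 3.76 and 5.36 in H3.3K27M. Its changes were -0.67 ± 0.24 (adjusted p = 0.0653) and -0.61 ± 0.27 (adjusted p = 0.123). H3.3WT replicate 2 was the highest library and replicate 1 lay just above the next, and without H3.3WT replicate 1 the Cbfa2t2_KO value was called (-1.02, adjusted p = 0.0129). Gadd45b, which is induced by NF-kappa B and growth signals, stood at 4.06 and 3.68 FPKM in H3.3WT, 2.92 and 3.38 in Cbfa2t2_KO and 3.08 and 3.28 in H3.3K27M, with changes of -0.23 ± 0.17 (adjusted p = 0.333) and -0.22 ± 0.18 (adjusted p = 0.403). Summed over the 3 genes, GADD45 RNA was 48.2 and 57.6 FPKM in H3.3WT, 12.6 and 12.7 in Cbfa2t2_KO and 9.73 and 13.6 in H3.3K27M, and the order of the groups against H3.3WT was the same after both scalings. Gadd45g made up 80.0% and 76.6% of that sum in H3.3WT, 43.5% and 38.8% in Cbfa2t2_KO and 29.7% and 36.3% in H3.3K27M.

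Immediate early genes, which are transcribed within minutes of a growth or stress signal, moved in the same libraries. Their summed level was 648 and 874 FPKM in H3.3WT, 218 and 255 in Cbfa2t2_KO and 254 and 277 in H3.3K27M. Of 18 tested, 11 fell and 2 rose in Cbfa2t2_KO (61.1% and 11.1%, beside 21.5% and 13.1% of all genes). In H3.3K27M 9 fell and 2 rose (50.0% and 11.1%, beside 17.8% and 8.42%). The 9 falls became 3 without H3.3WT replicate 2 and 5 without H3.3K27M replicate 2. Egr1 fell from a mean of 223 FPKM to 7.57 and 6.20, with log2 changes of -4.67 and -4.92, and Ier2 changed by -2.83 and -2.49. Ier3, an antiapoptotic early gene, rose by 2.47 and 2.40, and Klf2 by 1.35 and 1.90. The part of these genes in the fall of Gadd45g was not tested, and a change in both lines cannot be told apart from a difference in how the 2 H3.3WT libraries were handled.

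The G cyclins, atypical cyclins that slow or arrest the cycle, both rose after Cbfa2t2 knockout. Ccng1, a direct p53 target (ENSMUSG00000020326, chromosome 11, 40748552 to 40755311, reverse strand), stood at 1.67 and 1.70 FPKM in H3.3WT, 9.03 and 6.51 in Cbfa2t2_KO and 2.77 and 2.50 in H3.3K27M. The Cbfa2t2_KO libraries were the highest, and the H3.3K27M libraries lay between them and H3.3WT without overlap. The change was 1.69 ± 0.20 (adjusted p = 0.00121) in Cbfa2t2_KO, a ratio of means of 4.61, and 0.44 ± 0.18 (adjusted p = 0.103) in H3.3K27M, where both scalings gave a call (adjusted p = 0.0476 and 0.0418). Ccng1 was lower in H3.3K27M than in Cbfa2t2_KO by -1.26 ± 0.19 (adjusted p = 0.0129). That call was lost without Cbfa2t2_KO replicate 1 (adjusted p = 0.0526) and without H3.3K27M replicate 2 (adjusted p = 0.0544).

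Ccng2, which is high in quiescent cells and is a FOXO target, rose in both lines (ENSMUSG00000029385, chromosome 5, 93267257 to 93276231, forward strand). Its level was 2.11 and 2.58 FPKM in H3.3WT, 7.12 and 6.64 in Cbfa2t2_KO and 8.11 and 6.67 in H3.3K27M. All 4 libraries of the lines were above both H3.3WT libraries. The changes were 1.24 ± 0.18 (adjusted p = 0.00212) and 1.33 ± 0.20 (adjusted p = 0.00349), with ratios of means of 2.94 and 3.15. The difference between the lines was 0.086 ± 0.18 (adjusted p = 0.793). In the comparisons with H3.3WT both G cyclins lay under 5 FPKM on average, so an alternative minimum of 5 FPKM removed them from those tests.

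The Ccng1 promoter is shown because, among the 29 members with a window, it holds the closest match to a p53 response element. Such an element is built of 2 half-sites of 10 bases with a spacer of up to 13. The 40 member windows include none of Pmaip1, Trp53inp1, Zmat3, Perp, Ddb2 and Xpc. The sequence runs on the reverse strand of GRCm38.p6 (chr11:40755312-40755536) over the 225 bases of the RefSeq window that lie outside the GENCODE gene, with capitals for the element and for CCAAT on either strand, which share no bases:
Ccng1: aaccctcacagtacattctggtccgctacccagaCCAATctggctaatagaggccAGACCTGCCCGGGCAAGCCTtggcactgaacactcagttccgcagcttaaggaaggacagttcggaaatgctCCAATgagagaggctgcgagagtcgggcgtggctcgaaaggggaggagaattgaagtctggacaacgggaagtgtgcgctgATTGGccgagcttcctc
With up to 2 mismatches outside the fixed C and G of each half-site, such elements were found in windows of 4 members: Ccng1 (1 mismatch), Bax, Sesn1 and Gadd45a (2 each). These are 4 of 40 member windows, beside 3.34% of all windows, and a window without mismatch was found for 0 members and 0.0639% of all. The elements of 3 members follow, with half-sites in capitals, to show how they differ:
Ccng1 element (chr11:40755462-40755481, reverse strand, 195 to 176 bases before the start): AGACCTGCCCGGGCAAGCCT
Bax element (chr7:45467090-45467114, reverse strand, 216 to 192 bases before the start): TGACAAGCATatcccAGGCAAGCTT
Sesn1 element (chr10:41887253-41887275, forward strand, 186 to 164 bases before an internal start): GCGCTTGGCCttcAAGCTTGTTT
Ccng1 and Sesn1 rose in Cbfa2t2_KO, whereas Bax and Gadd45a were not called there. The line is described as p53-deficient, and no binding was measured. The FOXO element GTAAACA was in windows of 3 members (Mdm2, Bbc3 and Bcl2l11), beside 3.17% of all windows, and not in the Ccng2 window. That Ccng2 window and the Bbc3 window with the match lie wholly inside their GENCODE genes. Bases before the Ccng2 gene were thus not searched.

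Plk2, a polo-like kinase gene induced by p53 and by synaptic activity, was below the minimum, at 0.354 and 0.268 FPKM in H3.3WT and 0.710 and 0.780 in Cbfa2t2_KO, and its level in H3.3K27M was not analysed here. The Cbfa2t2_KO libraries were the higher pair. With no minimum the change was 0.41 ± 0.15 (adjusted p = 0.0771).

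**Figure D2:**
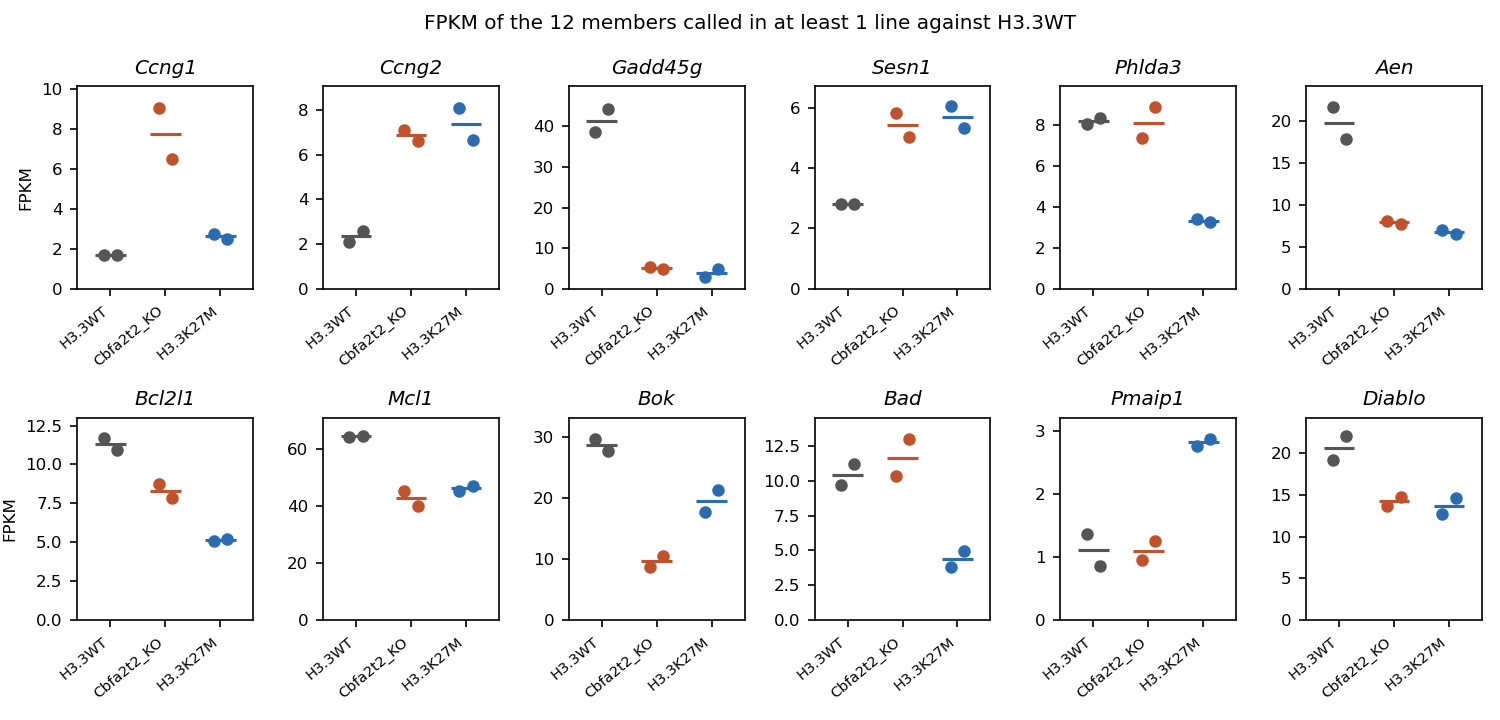
FPKM (y axis, linear from 0) of the 12 members called in at least 1 line against H3.3WT, with a point per library and a bar at the mean of the 2 libraries of a group. Gadd45g and Aen are low in both lines, Ccng2 and Sesn1 are high in both, Ccng1 is highest in Cbfa2t2_KO, and Phlda3, Bad and Pmaip1 stand apart in H3.3K27M.

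Of the 7 stress and death effectors that p53 induces, Sesn1 rose in both lines, Aen fell in both and Phlda3 fell in H3.3K27M. Aen, the most abundant of them in H3.3WT, encodes an exonuclease that degrades DNA and RNA in dying cells (ENSMUSG00000030609, chromosome 7, 78895854 to 78911209, forward strand). It stood at 21.7 and 17.9 FPKM in H3.3WT, 8.15 and 7.79 in Cbfa2t2_KO and 7.002 and 6.52 in H3.3K27M. Both lines lay well below both H3.3WT libraries. The changes were -1.21 ± 0.16 (adjusted p = 0.00172) and -1.42 ± 0.18 (adjusted p = 0.00206), with ratios of means of 0.403 and 0.342, and the lines differed by -0.21 ± 0.17 (adjusted p = 0.439). The calls against H3.3WT held under each alternative run.

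Sesn1 encodes a sestrin that restrains mTORC1 when leucine is scarce and lies at ENSMUSG00000038332, chromosome 10, 41809935 to 41908424, forward strand. Its level was 2.82 and 2.80 FPKM in H3.3WT, 5.82 and 5.02 in Cbfa2t2_KO and 6.05 and 5.33 in H3.3K27M. The 4 libraries of the lines were all above the H3.3WT pair, which differed by little. The changes were 0.75 ± 0.17 (adjusted p = 0.0138) and 0.81 ± 0.19 (adjusted p = 0.0157), and the ratios of means were 1.93 and 2.03. Leaving out H3.3WT replicate 2 or replicate 1 of Cbfa2t2_KO ended the call in that line (adjusted p = 0.0579 and 0.0611), and leaving out either H3.3WT library, replicate 1 or 2, ended that in H3.3K27M (0.0851 and 0.0932).

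Phlda3, whose product competes with AKT for membrane lipids (ENSMUSG00000041801, chromosome 1, 135766119 to 135769136, forward strand), separated the lines. It stood at 8.01 and 8.34 FPKM in H3.3WT, 7.33 and 8.87 in Cbfa2t2_KO and 3.40 and 3.23 in H3.3K27M. The H3.3K27M libraries were below all others, and the Cbfa2t2_KO libraries spanned the H3.3WT values. The change was -1.09 ± 0.18 (adjusted p = 0.00509) in H3.3K27M and -0.017 ± 0.17 (adjusted p = 0.948) in Cbfa2t2_KO. The lines differed by -1.07 ± 0.17 (adjusted p = 0.0139), a call that was lost without Cbfa2t2_KO replicate 2 (adjusted p = 0.128) and without H3.3K27M replicate 2 (adjusted p = 0.0567).

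The other 4 effectors were not called in a comparison. Trp53inp1, which promotes p53 activity and autophagy, ranged from 1.21 to 2.48 FPKM over the 6 libraries with overlap of all groups. Zmat3, an RNA-binding zinc finger gene, ranged from 3.69 to 5.36 FPKM. Perp, which encodes a membrane protein of desmosomes, ranged from 6.15 to 7.82 FPKM, and Ei24, an endoplasmic reticulum protein gene linked to autophagy, from 5.16 to 7.26. Their log2 changes against H3.3WT ran from -0.29 (Zmat3 in H3.3K27M) to 0.26 (Ei24 in Cbfa2t2_KO).

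Ddb2 and Xpc, which recognise ultraviolet lesions in nucleotide excision repair, were the 2 repair members tested. Xpc, the more abundant, stood at 8.47 and 8.25 FPKM in H3.3WT, 10.7 and 10.96 in Cbfa2t2_KO and 8.18 and 7.44 in H3.3K27M. The Cbfa2t2_KO libraries were the highest pair, with a change of 0.34 ± 0.15 (adjusted p = 0.121), and H3.3K27M stood at -0.089 ± 0.18 (adjusted p = 0.74). Ddb2 stood at 1.24 and 1.40 FPKM in H3.3WT, 2.05 and 2.24 in Cbfa2t2_KO and 1.86 and 1.79 in H3.3K27M. Both lines were above H3.3WT without overlap, and the changes of 0.44 ± 0.16 (adjusted p = 0.0685) and 0.28 ± 0.17 (adjusted p = 0.249) did not pass. Scaling gave calls in Cbfa2t2_KO for Ddb2 (median-of-ratios, adjusted p = 0.0310, and quantile, 0.0329) and for Xpc (quantile, adjusted p = 0.0439). Exons of Ddb2 overlap Acp2 on the other strand over 23.8% of their bases, and Acp2 changed by -0.021 and -0.21, not called, while the strand of the libraries is not stated.

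Fas, the death receptor gene, was below the minimum, at 0.413 and 0.781 FPKM in H3.3WT, 0.140 and 0.165 in Cbfa2t2_KO and 0.350 and 0.104 in H3.3K27M. Each library of the lines was below both H3.3WT libraries. With no minimum the changes were -0.46 ± 0.17 (adjusted p = 0.0771) and -0.38 ± 0.19 (adjusted p = 0.186). Casp8, which encodes the caspase that death receptors activate, stood at 2.06 and 2.51 FPKM in H3.3WT, 1.78 and 1.14 in Cbfa2t2_KO and 2.10 and 2.31 in H3.3K27M. Cbfa2t2_KO was the lowest group, and the changes of -0.43 ± 0.19 (adjusted p = 0.119) and -0.036 ± 0.18 (adjusted p = 0.901) were not called.

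Of the antiapoptotic BCL2 genes, Mcl1 fell in Cbfa2t2_KO and Bcl2l1 in H3.3K27M, 1 of 2 tested in each line. Mcl1, a short-lived protein's gene and the most abundant member in H3.3WT (ENSMUSG00000038612, chromosome 3, 95658788 to 95663176, forward strand), stood at 64.4 and 64.7 FPKM in H3.3WT, 45.6 and 40.2 in Cbfa2t2_KO and 45.3 and 47.3 in H3.3K27M. Both lines were below H3.3WT without overlap. The change was -0.58 ± 0.13 (adjusted p = 0.0141) in Cbfa2t2_KO and -0.47 ± 0.16 (adjusted p = 0.0569), not called, in H3.3K27M. Median-of-ratios scaling ended the call (adjusted p = 0.0531), as did leaving out H3.3WT replicate 2 (0.0544) or replicate 2 of Cbfa2t2_KO (0.0914). In H3.3K27M it was gained with a minimum of 5 FPKM (adjusted p = 0.0477) and in the fit of 6 libraries (adjusted p = 0.0372).

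Bcl2l1, which encodes BCL-XL (ENSMUSG00000007659, chromosome 2, 152780668 to 152831728, reverse strand), stood at 11.7 and 10.9 FPKM in H3.3WT, 8.75 and 7.85 in Cbfa2t2_KO and 5.07 and 5.23 in H3.3K27M. The groups formed 3 separate steps, with H3.3K27M the lowest. The change was -1.002 ± 0.18 (adjusted p = 0.00613) in H3.3K27M, a ratio of means of 0.455, and -0.41 ± 0.16 (adjusted p = 0.0805), not called, in Cbfa2t2_KO. Without H3.3WT replicate 1 the H3.3K27M call was lost (adjusted p = 0.0504). The difference between the lines was -0.59 ± 0.17 (adjusted p = 0.0579). Bcl2 itself was below the minimum, at 0.658 and 1.33 FPKM in H3.3WT, 0.562 and 0.560 in Cbfa2t2_KO and 0.753 and 0.706 in H3.3K27M, with overlap of H3.3WT and H3.3K27M.

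Among the effectors, which form pores in the outer mitochondrial membrane, Bok fell and Bax and Bak1 were not called. Bok encodes an effector that is controlled by protein turnover rather than by BCL2 proteins (ENSMUSG00000026278, chromosome 1, 93685660 to 93695764, forward strand). It stood at 29.6 and 27.7 FPKM in H3.3WT, 8.73 and 10.5 in Cbfa2t2_KO and 17.7 and 21.4 in H3.3K27M. The Cbfa2t2_KO libraries were the lowest, H3.3K27M lay between, and no groups overlapped. The change was -1.49 ± 0.15 (adjusted p = 0.000898) in Cbfa2t2_KO, a ratio of means of 0.335, and it held under each alternative run. In H3.3K27M it was -0.54 ± 0.17 (adjusted p = 0.04999), at the threshold, and that call was lost under 10 of 13 alternatives, among them each left-out library (adjusted p = 0.0578 to 0.222). Between the lines Bok was higher in H3.3K27M by 0.95 ± 0.17 (adjusted p = 0.0177), a call lost without Cbfa2t2_KO replicate 1 (adjusted p = 0.0721), Cbfa2t2_KO replicate 2 (0.0871) or H3.3K27M replicate 2 (0.0752).

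Bax, the p53-induced effector and the most abundant of the 3, stood at 48.6 and 52.9 FPKM in H3.3WT, 63.9 and 69.2 in Cbfa2t2_KO and 49.7 and 68.9 in H3.3K27M. The Cbfa2t2_KO libraries were above both H3.3WT libraries, and the H3.3K27M libraries spread across both groups. The change in Cbfa2t2_KO was 0.38 ± 0.13 (adjusted p = 0.0565), and a minimum of 5 FPKM (adjusted p = 0.0491), median-of-ratios scaling (0.0358) or quantile normalization (0.0291) gave a call. In H3.3K27M it was 0.20 ± 0.19 (adjusted p = 0.463). Bak1 stood at 16.3 and 14.6 FPKM in H3.3WT, 22.6 and 12.9 in Cbfa2t2_KO and 10.4 and 13.2 in H3.3K27M, and its changes were 0.14 ± 0.24 (adjusted p = 0.671) and -0.37 ± 0.19 (adjusted p = 0.171).

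Of the 5 BH3-only genes, limma called 0 in Cbfa2t2_KO (2 at an unadjusted p under 0.05, both lower), while Bad fell and Pmaip1 rose in H3.3K27M. Bad, whose product is held inactive by growth factor kinases (ENSMUSG00000024959, chromosome 19, 6941861 to 6951899, forward strand), stood at 9.67 and 11.2 FPKM in H3.3WT, 10.3 and 12.99 in Cbfa2t2_KO and 3.79 and 4.97 in H3.3K27M. The H3.3K27M libraries were below all others, and the Cbfa2t2_KO libraries overlapped with H3.3WT. The change was -1.09 ± 0.20 (adjusted p = 0.00678) in H3.3K27M, a ratio of means of 0.420, and 0.14 ± 0.17 (adjusted p = 0.553) in Cbfa2t2_KO. The first did not hold once H3.3WT replicate 2 was left out (adjusted p = 0.0596). Between the lines Bad differed by -1.24 ± 0.20 (adjusted p = 0.0134), a call lost without Cbfa2t2_KO replicate 2 (adjusted p = 0.118). Gpr137 overlaps 20.5% of the exonic bases of Bad on the other strand, and it stood at 4.18 and 4.07 FPKM in H3.3WT, 5.91 and 6.62 in Cbfa2t2_KO and 2.51 and 3.26 in H3.3K27M. It had the same order of groups as Bad, with changes of 0.50 ± 0.17 (adjusted p = 0.0516) and -0.41 ± 0.19 (adjusted p = 0.151) against H3.3WT and -0.91 ± 0.18 (adjusted p = 0.0263) between the lines. Leaving out any library of these lines ended that last call (adjusted p = 0.0544 to 0.182), and the part of Gpr137 in the Bad value was not tested.

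Pmaip1, which encodes the MCL1 antagonist NOXA (ENSMUSG00000024521), stood at 1.37 and 0.855 FPKM in H3.3WT, 0.950 and 1.26 in Cbfa2t2_KO and 2.77 and 2.88 in H3.3K27M. Both H3.3K27M libraries were above all others, and Cbfa2t2_KO and H3.3WT overlapped. The change was 0.87 ± 0.19 (adjusted p = 0.0144) in H3.3K27M, a ratio of means of 2.54, and 0.0009333 ± 0.18 (adjusted p = 0.997) in Cbfa2t2_KO. Leaving out replicate 2 of H3.3WT (adjusted p = 0.114) or of H3.3K27M (0.0582) ended that call. The rise of H3.3K27M over Cbfa2t2_KO was 0.87 ± 0.18 (adjusted p = 0.0288), and it was lost when any library of these 2 groups was left out (adjusted p = 0.0535 to 0.128).

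Bid, which links caspase 8 to the mitochondrial pathway and is the most abundant BH3-only gene in H3.3WT, stood at 15.97 and 14.9 FPKM in H3.3WT, 11.5 and 11.1 in Cbfa2t2_KO and 7.52 and 14.4 in H3.3K27M. All libraries of the lines were below both of H3.3WT, but H3.3K27M replicate 1 stood far below replicate 2. The changes were -0.41 ± 0.15 (adjusted p = 0.0618) and -0.52 ± 0.27 (adjusted p = 0.178), and without H3.3K27M replicate 2 the second was called (-0.95, adjusted p = 0.0319). Bcl2l13 overlaps 17.7% of the exonic bases of Bid on the other strand and changed by -0.32 and -0.69 (adjusted p = 0.0963 and 0.0359). The second of these was lost with each scaling (adjusted p = 0.0739 and 0.0993), without either H3.3WT library (0.157 and 0.138) and without H3.3K27M replicate 2 (0.136). Its part in the Bid value was not tested.

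Bbc3, which encodes PUMA, the principal p53-induced killer, stood at 9.05 and 14.9 FPKM in H3.3WT, 11.9 and 13.4 in Cbfa2t2_KO and 7.64 and 8.48 in H3.3K27M. H3.3K27M was the lowest group, and the changes of 0.11 ± 0.23 (adjusted p = 0.723) and -0.48 ± 0.24 (adjusted p = 0.162) were not called. Bcl2l11, which encodes BIM and responds to FOXO3 and loss of growth factors, stood at 2.69 and 2.90 FPKM in H3.3WT, 1.46 and 1.86 in Cbfa2t2_KO and 2.45 and 1.64 in H3.3K27M. Both lines were below H3.3WT, with changes of -0.52 ± 0.17 (adjusted p = 0.0504) and -0.33 ± 0.20 (adjusted p = 0.253). The first just missed the threshold and was called with eBayes without trend (adjusted p = 0.0417) and with robust eBayes (adjusted p = 0.0437).

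Summed per library, the antiapoptotic genes Bcl2, Bcl2l1 and Mcl1 reached 76.8 and 77.0 FPKM in H3.3WT, 54.9 and 48.6 in Cbfa2t2_KO and 51.1 and 53.3 in H3.3K27M. The effector genes Bax, Bak1 and Bok reached 94.6 and 95.1, 95.2 and 92.6, and 77.8 and 103 in the same order. The antiapoptotic sums of both lines were thus below H3.3WT without overlap, whereas the effector sums overlapped. The quotient of effector to antiapoptotic RNA was 1.23 and 1.24 in H3.3WT, 1.74 and 1.90 in Cbfa2t2_KO and 1.52 and 1.94 in H3.3K27M. Bax RNA per Mcl1 RNA was 0.756 and 0.817, 1.40 and 1.72, and 1.10 and 1.46. Quantile normalization gave quotients of 1.20 and 1.24, 1.74 and 1.92, and 1.53 and 1.93, so the order against H3.3WT was the same. No test was made of these sums over members, and protein was not measured.

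**Figure D3:**
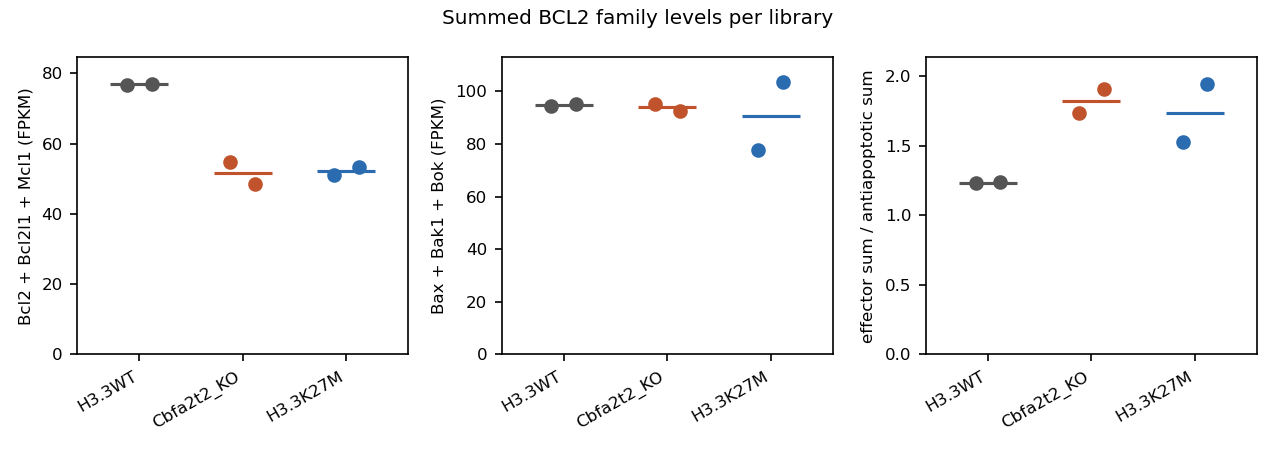
Summed FPKM of antiapoptotic genes (left), summed FPKM of effectors (middle) and their quotient (right) per library, with a bar at the mean of the 2 libraries of a group and y axes from 0. Antiapoptotic sums fall from 76.8 and 77.0 in H3.3WT to 48.6 to 54.9 in the other lines, effector sums overlap, and the quotient is higher in all 4 libraries of the lines.

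In the apoptosome group, Diablo was called in both lines and the other 4 members in neither. Diablo encodes SMAC, which leaves mitochondria to neutralise inhibitors of apoptosis such as XIAP (ENSMUSG00000029433, chromosome 5, 123509765 to 123524176, reverse strand). It stood at 19.1 and 22 FPKM in H3.3WT, 13.7 and 14.8 in Cbfa2t2_KO and 12.7 and 14.6 in H3.3K27M. Both lines were below H3.3WT without overlap. The changes were -0.50 ± 0.15 (adjusted p = 0.0355) and -0.56 ± 0.17 (adjusted p = 0.0465). Both calls were lost with each scaling (adjusted p = 0.0969 to 0.154), in Cbfa2t2_KO also without H3.3WT replicate 2 (0.158) or either Cbfa2t2_KO library (0.132 and 0.0997), and in H3.3K27M without any one library (0.0721 to 0.255). B3gnt4 overlaps 21.5% of its exonic bases on the other strand and stayed at or below 1.07 FPKM.

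Casp9, the apoptosome's caspase, stood at 4.99 and 4.36 FPKM in H3.3WT, 5.46 and 5.47 in Cbfa2t2_KO and 5.43 and 2.29 in H3.3K27M. H3.3K27M replicate 2 was the lowest library and replicate 1 was near Cbfa2t2_KO, so the change in H3.3K27M was -0.30 ± 0.30 (adjusted p = 0.484). Without replicate 1 of H3.3K27M it was called (-0.78, adjusted p = 0.0435). Casp2, an initiator caspase that the PIDD complex activates, stood at 3.57 and 2.96 FPKM in H3.3WT, 2.91 and 2.61 in Cbfa2t2_KO and 2.07 and 1.84 in H3.3K27M. Both H3.3K27M libraries were the lowest, with -0.53 ± 0.19 (adjusted p = 0.0694), and the fit of 6 libraries gave a call (adjusted p = 0.0491). Apaf1, the apoptosome scaffold, ranged from 1.02 to 2.08 FPKM, highest in Cbfa2t2_KO, and Xiap, which blocks caspases, from 0.985 to 2.91 with overlap of all groups. Neither was called.

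Other genes of the p53 pathway, from lists fixed by symbol with earlier results of these data known, gave the surroundings of these members. Btg2 and Sesn2 of the other p53 targets also stood in the lists of immediate early genes and of ATF4 and CHOP targets, respectively. Pidd1 and Ercc5 also stood in those of caspases and adaptors and of excision repair genes. Atf3 was shared by the lists of immediate early genes and of ATF4 and CHOP targets. Dusp1 was shared by those of immediate early and stress MAP kinase genes. Of 34 other p53 targets 23 were tested. In Cbfa2t2_KO 2 rose and 7 fell (8.70% and 30.4%, beside 13.1% and 21.5% of all genes), with a median of 0.011, beside -0.11. In H3.3K27M limma called 0 rises (1 at an unadjusted p under 0.05), beside 8.42% of all genes. There 8 fell (34.8%, beside 17.8%), with a median of -0.27, beside -0.12. At each scaling 1 rose in H3.3K27M, and after quantile normalization 4 rose in Cbfa2t2_KO and 5 fell in H3.3K27M. The 8 falls in H3.3K27M became 4 without H3.3WT replicate 1, 2 without H3.3WT replicate 2 and 5 without either H3.3K27M library. In Cbfa2t2_KO the rises became 1 without H3.3WT replicate 2 or either Cbfa2t2_KO library, and the falls 4 without Cbfa2t2_KO replicate 2. Triap1, a small inhibitor of apoptosome formation, fell from 51.4 FPKM to 18.4 and 16.1 (log2 change -1.43 ± 0.14 (adjusted p = 0.000746) and -1.62 ± 0.16 (adjusted p = 0.00111)). Bloc1s2 changed by -1.36 ± 0.19 (adjusted p = 0.00201) and -1.35 ± 0.25 (adjusted p = 0.0068), the second of which did not hold once H3.3WT replicate 2 was left out (0.0555). Ephx1, a detoxifying epoxide hydrolase gene, rose in Cbfa2t2_KO by 0.80 ± 0.16 (adjusted p = 0.00783), and Psrc1, a spindle gene, by 0.64 ± 0.21 (adjusted p = 0.0455), a call lost without H3.3WT replicate 2 (0.215) and either Cbfa2t2_KO library (0.134 and 0.166). Cdkn1a, which encodes the cell cycle inhibitor p21 and is the best known p53 target, stood at 2.51 and 3.39 FPKM in H3.3WT, 2.85 and 3.78 in Cbfa2t2_KO and 1.91 and 2.59 in H3.3K27M. Both lines overlapped with H3.3WT, and the changes of 0.13 ± 0.20 (adjusted p = 0.642) and -0.28 ± 0.21 (adjusted p = 0.343) were not called.

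**Figure D4:**
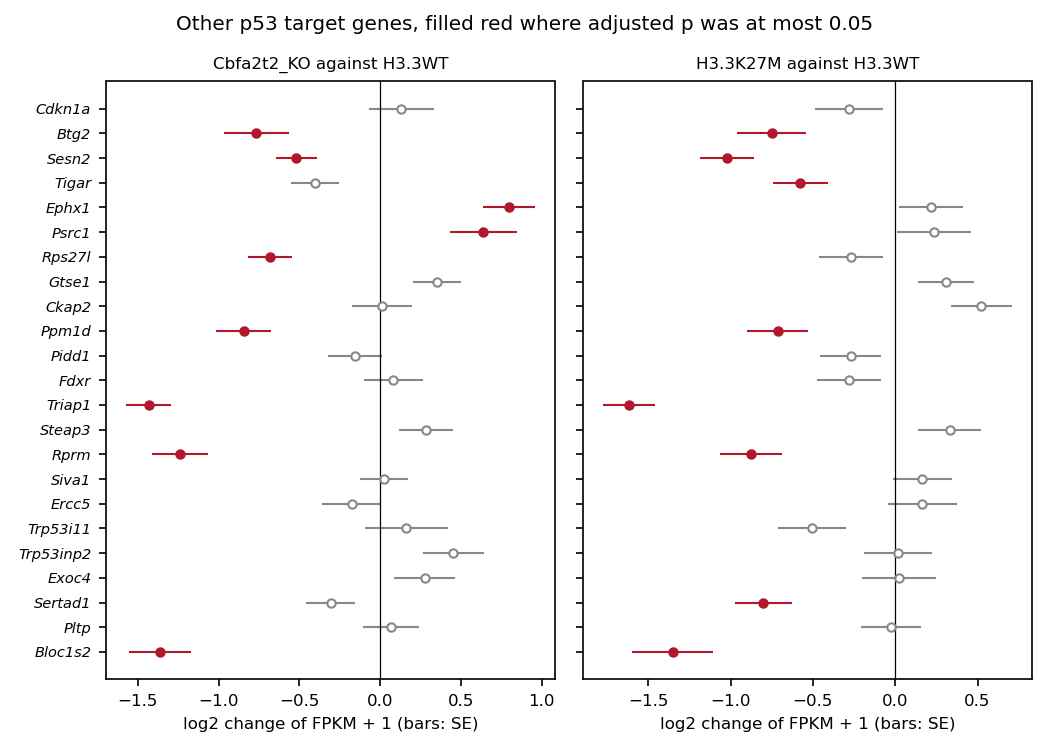
Log2 change of FPKM + 1 (x axis, point and SE) of the 23 tested other p53 targets (y axis) in each line against H3.3WT, with calls filled in red. Triap1 (-1.43 and -1.62) and Bloc1s2 (-1.36 and -1.35) are the lowest points, and Cdkn1a stays near 0.

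Among 25 tested genes that act on p53, 5 rose and 6 fell in Cbfa2t2_KO, beside 13.1% and 21.5% of all genes. In H3.3K27M 4 rose and 3 fell, beside 8.42% and 17.8%. In each line the share of rises in the list was above that of all genes. The share of falls was near that of all genes in Cbfa2t2_KO and below it in H3.3K27M. The counts in this list depended on single libraries. In Cbfa2t2_KO the rises became 3 without H3.3WT replicate 1, 1 without H3.3WT replicate 2, and 2 and 1 without Cbfa2t2_KO replicates 1 and 2, and the falls 1 without Cbfa2t2_KO replicate 2. In H3.3K27M limma called 0 rises without either H3.3WT library and 1 without H3.3K27M replicate 2. The falls there became 1 without H3.3WT replicate 2 or H3.3K27M replicate 2 and 8 without H3.3K27M replicate 1. Cdkn2a, whose ARF product inhibits MDM2 and whose INK4A product inhibits CDK4, rose from 6.63 FPKM to 56.8 in Cbfa2t2_KO (2.92 ± 0.14 (adjusted p = 0.000109)) and to 14.9 in H3.3K27M (1.04 ± 0.21 (adjusted p = 0.00968)). The second call was lost without either H3.3WT library or H3.3K27M replicate 2 (adjusted p = 0.0502 to 0.0594). Ppp1r13l, which encodes the p53 inhibitor iASPP, rose in Cbfa2t2_KO by 0.80, and Chek2, a damage kinase gene, rose in H3.3K27M by 0.80. Both were lost without H3.3WT replicate 2 (adjusted p = 0.104 and 0.0937), the first also without Cbfa2t2_KO replicate 1 or 2 (0.0503 and 0.105) and the second without H3.3WT replicate 1 (0.0681). Usp10, a p53 deubiquitinase gene, changed by -1.23 and -0.86, Ep300, an acetyltransferase gene, by -1.06 in Cbfa2t2_KO, and Trp73, a p53 relative, by -1.34 in H3.3K27M. Without Cbfa2t2_KO replicate 2 the Ep300 call was lost (adjusted p = 0.0527), and without H3.3WT replicate 2 or H3.3K27M replicate 2 that of Usp10 in H3.3K27M (0.109 and 0.0646).

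In the other BCL2 family and mitochondrial death genes, 4 of 19 tested rose and 4 fell in Cbfa2t2_KO. These were 21.05% each, beside 13.1% and 21.5% of all genes. In H3.3K27M 3 rose and 4 fell (15.8% and 21.05%, beside 8.42% and 17.8%). The count of falls in H3.3K27M was 2 after either scaling, and 1 without either H3.3WT library or H3.3K27M replicate 2. In Cbfa2t2_KO the rises became 2 without replicate 1 of H3.3WT or of the knockout. The falls there became 2 without either of these and 1 without replicate 2 of either group. Bnip3, a mitophagy receptor gene induced by hypoxia, rose from 36.03 FPKM to 71.1 and 122, by 0.97 and 1.76. In Cbfa2t2_KO leaving out replicate 1 of H3.3WT (adjusted p = 0.0778) or of the knockout (0.112) ended that call. Vdac1, a mitochondrial pore gene, rose by 0.83 in Cbfa2t2_KO and Bnip3l by 1.19 in H3.3K27M. The BH3-only genes Bik and Hrk changed by -1.42 and -1.18 in Cbfa2t2_KO, and Hrk and the cochaperone gene Bag3 by -1.42 and -0.83 in H3.3K27M. Hrk was lost without H3.3WT replicate 2 or either Cbfa2t2_KO library in the first line (adjusted p = 0.0512 to 0.0939) and without H3.3K27M replicate 2 in the second (0.0604), and Bag3 without either H3.3WT library or H3.3K27M replicate 2 (0.0633 to 0.103).

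Of 20 tested caspases, adaptors, IAPs and mitochondrial death factors, 4 rose and 6 fell in Cbfa2t2_KO, beside 13.1% and 21.5% of all genes. In H3.3K27M 3 rose and 5 fell, beside 8.42% and 17.8%. Each share in this list was above that of all genes. In H3.3K27M the rises became 1 without H3.3WT replicate 2, and the falls 3 without either H3.3WT library. Sept4, one product of which antagonises XIAP, rose from 1.17 FPKM to 9.22 (2.23 ± 0.17 (adjusted p = 0.000357)) and 5.55 (1.58 ± 0.20 (adjusted p = 0.00191)), and Aifm1, a mitochondrial flavoprotein gene, rose by 0.96 and 0.88. Fadd, the adaptor of Fas and caspase 8, changed by -1.16 and -1.26, and Dffb, the apoptotic nuclease gene, by -1.05 and -1.13. Leaving out H3.3WT replicate 2 ended the Aifm1 call in H3.3K27M (adjusted p = 0.0695). The list of death receptors and ligands also held Traf2, Traf3, Fem1b, Faim and Faim2, which are neither. Of its 9 tested genes, 1 rose and 5 fell in Cbfa2t2_KO (11.1% and 55.6%, beside 13.1% and 21.5% of all genes). In H3.3K27M limma called 0 rises (1 at an unadjusted p under 0.05), beside 8.42% of all genes. There 3 fell (33.3%, beside 17.8%), and 1 rose after either scaling. The falls became 3 without Cbfa2t2_KO replicate 2 in the first line and 5 without H3.3K27M replicate 1 in the second. Tnfrsf1a, the TNF receptor gene, changed by -1.26 ± 0.15 (adjusted p = 0.00122) and -1.08 ± 0.17 (adjusted p = 0.00425), Tnfrsf12a by -1.35 and -1.30, and the ligand gene Tnfsf12 by 1.04 in Cbfa2t2_KO.

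Nucleotide excision repair and translesion synthesis genes, the surroundings of Ddb2 and Xpc, gave 5 rises and 4 falls among 29 tested in Cbfa2t2_KO. These were 17.2% and 13.8%, beside 13.1% and 21.5% of all genes. In H3.3K27M there were 5 rises and 7 falls among 30 (16.7% and 23.3%, beside 8.42% and 17.8%). The falls there were 4 and 3 after the scalings. In H3.3K27M the rises became 1 without H3.3WT replicate 2 and 3 without H3.3K27M replicate 2, and limma called 0 without H3.3WT replicate 1. The falls there became 1 and 2 without H3.3WT replicates 1 and 2 and 3 without H3.3K27M replicate 2. In Cbfa2t2_KO the rises became 3 without H3.3WT replicate 1 or Cbfa2t2_KO replicate 2 and 2 without either of the others, and the falls 2 without Cbfa2t2_KO replicate 2. Rrm2, a ribonucleotide reductase subunit gene, rose by 0.75 and 0.86, and Rad18, a ubiquitin ligase gene, by 0.75 and 0.87. Ercc4, a repair nuclease gene, changed by -0.99 and -1.08, and of the TFIIH genes Gtf2h5 by -0.96 in Cbfa2t2_KO and Ercc2 by -1.04 in H3.3K27M. Without H3.3WT replicate 1 the calls of Rad18 in both lines (adjusted p = 0.112 and 0.105), Rrm2 in H3.3K27M (0.0714) and Ercc2 (0.0863) were lost. Rad18 was lost also without H3.3WT replicate 2 (0.0619 and 0.0572) and Cbfa2t2_KO replicate 1 (0.126), and Ercc2 without H3.3K27M replicate 2 (0.0661).

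The list of stress MAP kinase genes, which act downstream of GADD45 proteins, also held the phosphatase genes Dusp1 and Dusp10. It gave 2 rises and 3 falls among 12 tested in Cbfa2t2_KO (1 fall after either scaling). These were 16.7% and 25.0%, beside 13.1% and 21.5% of all genes. In H3.3K27M there were 1 rise and 3 falls (8.33% and 25.0%, beside 8.42% and 17.8%), with 4 rises after either scaling. Single libraries decided these counts. In Cbfa2t2_KO limma called 0 rises without H3.3WT replicate 2 or Cbfa2t2_KO replicate 1 and 1 without Cbfa2t2_KO replicate 2. The falls became 1 without either H3.3WT library or Cbfa2t2_KO replicate 1, and 0 without Cbfa2t2_KO replicate 2. In H3.3K27M limma called 0 rises and 0 falls without either H3.3WT library, and 0 rises and 1 fall without H3.3K27M replicate 2. Map3k4, the GADD45-bound kinase gene, changed by -0.62 ± 0.14 (adjusted p = 0.0116) and -0.94 ± 0.20 (adjusted p = 0.0131), and Mapk14, which encodes p38 alpha, by -0.59 and -0.89. Mapk12 rose by 0.51 and 0.60, and Map2k6 by 0.92 in Cbfa2t2_KO. Each of these calls was lost without at least 1 library (adjusted p = 0.0509 to 0.184), and Mapk14 also with scaling (0.0562 to 0.0906). Targets of the stress factors ATF4 and CHOP, which can also induce Pmaip1 and Bbc3, gave 3 rises and 7 falls among 15 in Cbfa2t2_KO. In H3.3K27M there were 2 rises and 7 falls. Falls were 46.7% of the list in each line, beside 21.5% and 17.8% of all genes. The shares of rises were also above those of all genes, which were 13.1% and 8.42%. The rises became 1 in Cbfa2t2_KO without either H3.3WT library or Cbfa2t2_KO replicate 2, and 1 in H3.3K27M without any one library. Trib3 changed by -1.68 ± 0.14 (adjusted p = 0.000435) and -1.87 ± 0.17 (adjusted p = 0.00105), Cebpb by -1.53 in Cbfa2t2_KO, Ppp1r15a (GADD34) by -1.18 in H3.3K27M, and Ddit4, an mTORC1 inhibitor gene, by 1.17 and 1.17. Herpud1 rose in Cbfa2t2_KO by 0.49 and Slc7a11 in H3.3K27M by 0.64, and both were lost when single libraries were left out (adjusted p = 0.0528 to 0.205).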

How the data were processed

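FPKM values of the 6 libraries were used as the authors deposited them, in 1 table for Cbfa2t2_KO with H3.3WT (14431 genes) and 1 for H3.3K27M with H3.3WT (14318 genes). Over the 14082 genes in both, the H3.3WT columns agreed exactly. Per the submitters' processing notes, the authors used Trim Galore, HISAT2, StringTie and DESeq with GRCm38. Versions, the annotation release and the strand of the libraries are not given in the sources used here. Every gene listed reached 0.5 FPKM in at least 1 library, so lower genes are not seen. At most 34.2% of low FPKM values in a library fell on multiples of a common step (tolerance 0.1), so no reads could be recovered and read depth is unknown. Columns were assigned by name, those of H3.3K27M by the letter M alone, and 0 columns were left unmapped.

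Log2(FPKM + 1) was fitted by limma 3.58.1, run in R 4.3.3, with eBayes and its trend option, over genes averaging 1 FPKM or more in the libraries compared. P-values were adjusted by Benjamini-Hochberg over all genes tested, at 0.05. Fits of 4 libraries compared a line and H3.3WT, and a fit of all 6 compared the lines with each other. The procedure was tested on simulated data. Members and lists were chosen with earlier results of these data known. By rule, values per library were given for members called in a comparison and for the most abundant of each role, and those of further members were added after their values were seen. Other genes were named by the largest called rises and falls of each list, up to 2 of each per line. Cdkn1a and the overlapping genes were added to these. Coordinates are from GENCODE mouse release 21, promoter windows from RefSeq (GRCm38.p6), and figures were drawn with matplotlib 3.10.9.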

Additional observations from a re-analysis of the deposited data

Results flagged for a closer look

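Bad was the only member whose changes against H3.3WT had opposite signs in the 2 lines while the difference between the lines itself passed the test. It changed by 0.14 in Cbfa2t2_KO (not called) and by -1.09 in H3.3K27M. Over the alternative runs the Cbfa2t2_KO change ran from -0.0094 to 0.29, so its sign was not settled. The difference between the lines was -1.24 on the log2 scale (limma, adjusted p = 0.0134, both H3.3K27M libraries below both Cbfa2t2_KO libraries). The overlapping gene Gpr137 differed between the lines by -0.91 (adjusted p = 0.0263), and its part in the Bad value was not tested.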

How the results depend on the processing

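Groups of 2 libraries, unknown depth and a shared pair of H3.3WT libraries limit each comparison. The fits that leave out 1 library keep a lone library in its group, which is assumed to vary like the others. Replicate numbers pair no libraries across groups. No paired analysis was possible because the labels state no pairing of libraries.

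Over the alternatives (pseudocount 0.1, minimum of 0 or 5 FPKM, 2 scalings, eBayes without trend or robust, the other set of libraries in the fit, a log2 change of at least 1, and each library left out), members kept their side of the threshold in 1105 of 1179 single values. The call was lost in 54 and gained in 20, and none of those values reversed a called direction. A log2 change of at least 1 ended by its construction the calls of Sesn1 and Diablo in both lines, Mcl1 in Cbfa2t2_KO, Bok and Pmaip1 in H3.3K27M, and Bok and Pmaip1 between the lines. It and the minimum of 5 FPKM also lowered counts of the further gene lists.

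Members higher in Cbfa2t2_KO went from 3 to 1 with a minimum of 5 FPKM, 5 with median-of-ratios scaling and 6 with quantile normalization. Members lower there went from 5 to 3 with median-of-ratios scaling and 3 with a log2 change of at least 1, and ranged from 3 to 6 with a library left out. Members higher in H3.3K27M went from 3 to 0 with a minimum of 5 FPKM and 1 with a log2 change of at least 1, and from 1 to 3 with a library left out. Members lower in H3.3K27M, 7 in all, ranged from 4 to 6 with a library left out. In H3.3K27M against Cbfa2t2_KO, 2 members higher became 1 with a minimum of 5 FPKM and 0 with a log2 change of at least 1, with 0 to 1 when a library was left out. The 3 members lower ranged from 1 to 4.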
